A study of Xenopus laevis with 12 samples.

Results

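The 6 whole-brain RNA-seq libraries of control Xenopus laevis tadpoles, 3 at Nieuwkoop-Faber (NF) stage 47 and 3 at NF stage 45, were compared across all genes to describe how the untreated brain changed between these stages. They are 6 of the 12 libraries of a study of thioridazine, an antipsychotic that blocks dopamine receptors, and were taken by their stage and control labels alone. The other 6 libraries, 3 for each stage, came from tadpoles kept in 90 µM thioridazine from NF 14 to NF 26, while the neural tube formed. Their labels describe these tadpoles as having brain abnormalities induced by thioridazine. Control embryos were called wild type in the labels, and both kinds of embryo were held at 18 °C during that window and at 14 °C before it and after it until they fed. No transgene, knockout or sex was given for any group. Replicates are labelled as biological, with no word on the number of brains or the clutches behind each library, so the p-values measure the spread between these samples, which may be in part technical.

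Both stages are early tadpole stages at which animals begin to feed, before thyroid hormone drives metamorphosis. In the amphibian brain at this time, radial glia and other progenitors that line the ventricles still divide, while neurons born earlier grow axons, build synapses and begin to release transmitters and peptides. Neuropeptides are cut from larger precursor proteins in secretory granules and act on receptors of neurons and endocrine cells, and they are known above all from the hypothalamus and midbrain. Oligodendrocytes, the glia that wrap axons in myelin, appear in the tadpole brain at about the same period.

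The control libraries held 14901231 to 16395159 counted reads at NF 47 and 12843954 to 15052703 at NF 45, and between 30408 and 30979 genes had a read in each. All 15 tested genes of a list of brain markers had reads in each of the 6 libraries, among them tubb3.L, a tubulin of neurons, with 963, 842 and 877 CPM (counts scaled to the library total) at NF 47 and 822, 928 and 752 CPM at NF 45, and fabp7.L, a fatty acid binding protein of radial glia, with 2807, 3106 and 3309 CPM at NF 47 and 2931, 2502 and 2064 CPM at NF 45. The stages overlapped in both genes. The NF 47 libraries resembled each other, with correlations of log2 CPM across genes of 0.977 to 0.982. Those of NF 45 lay between 0.890 and 0.960, and replicate 2 of NF 45 stood farthest from the others on the first principal component, at -100.8, against -15.0 to 6.9 in the NF 47 libraries and 27.0 and 77.8 in the other NF 45 libraries. That component held 52.3% of the variance of the 6 libraries, so the spread between NF 45 replicates exceeded the difference between the stages. Each result was therefore computed with and without replicate 2 of NF 45. In a whole-brain library, fewer cells of a type and less RNA per cell cannot be told apart.

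Neuropeptide genes were higher at NF 47 (69 of 71 tested), as were most genes of synapses (46 of 59), and most genes of the cell cycle (82 of 86) and of the list of chaperones and the unfolded protein response (57 of 71) were lower. In edgeR's quasi-likelihood fit of all 12 libraries, 0 of 26570 genes (0% in each direction) passed an adjusted p of 0.05 between the stages in controls, with a smallest edgeR adjusted p of 0.116. Unadjusted p-values were under 0.05 for 1677 genes that were higher at NF 47 (6.31%) and 1288 that were lower (4.85%). The same test without NF 45 replicate 2 of both treatments, on 10 libraries, called 464 genes higher (1.73%) and 353 lower (1.32%) of 26820. In that fit the controls have 3 libraries at NF 47 and 2 at NF 45. Leaving out replicate 2 of the NF 45 controls alone, with that of thioridazine brains kept, gave 0 calls, and the control libraries on their own without it gave 559. DESeq2 on all 12 libraries called 347 genes higher (2.07%) and 84 lower (0.501%) of the 16772 genes to which it gave an adjusted p, and limma-voom with library quality weights called 634 higher (2.39%) and 277 lower (1.04%). All 3 NF 47 libraries lay above all 3 NF 45 libraries for 2613 genes (9.83%) and below them for 2291 (8.62%). The calls given below come from 4 tests, namely edgeR on 12 and on 10 libraries, DESeq2 and limma-voom. Below, a gene is said to have risen or fallen where edgeR's test on the 10 libraries called it, and log2 fold changes with their standard errors (SE) are those of the 12-library fit, NF 47 over NF 45. Each SE was derived from the test, as the absolute log2 fold change divided by the square root of its F statistic.

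The higher calls and the lower calls differed in how far they rested on the choice of libraries. Of the 464 genes that rose without replicate 2, 400 (86.2%) had all 3 NF 47 libraries above all 3 NF 45 libraries once replicate 2 was put back, and 246 were also called higher by DESeq2 on all 12 libraries. Of the 353 that fell, 41 (11.6%) had the stages apart in all 6 libraries, and 11 were also called lower by DESeq2. In 273 of these 353 genes NF 45 replicate 2, which the fit had left out, lay below all 3 NF 47 libraries. Lists of tissues outside the brain, with 350 tested genes, held 21 of the 353 genes and 1 of the 464. Lists of neuronal genes, with 421 tested genes, held 3 of the 353 and 66 of the 464. Over all genes, 1.32% were called lower and 1.73% higher.

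The gene with the smallest p in the 12-library fit was faim2.L (gene number 444588), which encodes a membrane protein of neurons that inhibits Fas-driven cell death. It measured 24.5, 23.9 and 26.1 CPM in the NF 47 libraries, against 12.9, 10.4 and 12.8 CPM in the NF 45 libraries. The stages were far apart, with little spread inside either, and the log2 fold change was 1.05 ± 0.13. Its edgeR adjusted p was 0.0166 on the 10 libraries and its DESeq2 adjusted p was 1.82e-08. The presynaptic protein alpha-synuclein was encoded by snca.L (gene number 380315), with 149.9, 141 and 156 CPM at NF 47 and 90.7, 89.2 and 81.4 CPM at NF 45, a log2 fold change of 0.78 ± 0.11. Its stages did not overlap either, and it rose (edgeR adjusted p = 0.0166 on 10 libraries). The transmembrane protein gene tmeff2.L had 56.7, 52.9 and 57.0 CPM at NF 47, against 31.4, 36.8 and 30.5 CPM at NF 45, and rose by 0.75 ± 0.11, with replicate 2 the highest of the NF 45 libraries.

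The other 7 of the 10 higher genes with the smallest p had smaller changes than faim2.L. The potassium channel partner kcnip1.L, which binds channels of A-type currents, had 51.3, 52.9 and 54.7 CPM at NF 47 and 32.5, 35.6 and 28.2 CPM at NF 45. The sodium pump regulator fxyd6.S had 340.3, 349 and 373 CPM at NF 47 and 227, 231 and 233 CPM at NF 45. In both genes each NF 47 library exceeded each NF 45 library, and both rose, with log2 fold changes of 0.72 ± 0.11 and 0.62 ± 0.093. The tyrosine phosphatase gene ptprr.S (0.76 ± 0.12), the lysosomal membrane gene laptm4b.L (0.74 ± 0.12), the cyclin family gene ccni.S (0.68 ± 0.11), vstm2l.L (0.65 ± 0.10) and rell2.L (0.59 ± 0.097) rose too, and the 10 genes were called by DESeq2 and limma-voom as well.

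Neuropeptide precursors and the proteins of their granules had the highest median change of the 45 gene lists that were examined. Of the 71 genes of the neuropeptide and hypothalamus list that were tested, 69 were higher, beside 46.2% of all genes, and the median log2 fold change was 0.58, beside -0.028 over all genes. In 46 of them the 3 NF 47 libraries lay above the 3 NF 45 libraries (9.83% of all genes did so), and in none did they lie below. The test on 10 libraries called 27 higher and 0 lower (1.73% and 1.32% of all genes), DESeq2 called 28 higher and 0 lower, and limma-voom 29 higher and 0 lower. All 27 had the stages apart in the 6 control libraries. Summed over the 74 genes of the list with a read, the level was 4940, 5000 and 4830 CPM at NF 47, against 3590, 3630 and 3100 CPM at NF 45. Replicate 2 of NF 45 lay with its own stage in this sum. Its skin genes summed lowest and its muscle genes highest of the 6 control libraries, and the part of such tissues in the neuropeptide sum was not tested. The median of the list was 0.65 on the 10 libraries.

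Among the precursors, penk.L (gene number 495184) encodes proenkephalin, the source of opioid enkephalins. It had 95.9, 100.4 and 87.8 CPM at NF 47 and 55.8, 62.1 and 47.1 CPM at NF 45, a log2 fold change of 0.78 ± 0.14, and rose (edgeR adjusted p = 0.0173 on 10 libraries). The stages were apart in all 6 libraries, as they were for its other copy penk.S (49.6, 42.8 and 43.8 CPM at NF 47, 31.5, 32.9 and 26.3 CPM at NF 45). Neuropeptide Y, a peptide that drives feeding in vertebrates, was encoded by npy.L with 79.6, 77.3 and 74.1 CPM at NF 47 and 55.5, 51.0 and 48.7 CPM at NF 45. Its copy npy.S had 64.7, 60.6 and 62.6 CPM at NF 47 and 42.2, 41.4 and 36.0 CPM at NF 45. Both copies rose, by 0.57 ± 0.10 and 0.65 ± 0.12 on the log2 scale, and neither stage overlapped the other. The reads of such copies, which are close in sequence, may have been split between them during counting.

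Gonadotropin-releasing hormone II, a peptide of midbrain neurons, was encoded by gnrh2.L, with 17.1, 24.4 and 20.04 CPM at NF 47, against 10.4, 8.85 and 11.9 CPM at NF 45, a log2 fold change of 0.98 ± 0.20. The oxytocin-family precursor oxt.S had 20.4, 25.01 and 16.7 CPM at NF 47 and 12.1, 8.41 and 7.55 CPM at NF 45, a log2 fold change of 1.15 ± 0.26. For the vasotocin precursor avp.S the values were 11.4, 13.7 and 14.3 CPM at NF 47 and 7.89, 6.17 and 7.47 CPM at NF 45, a log2 fold change of 0.87 ± 0.18. All 3 rose with the stages apart, although gnrh2.L, oxt.S and avp.S differed within NF 47 more than npy.L did. Neuromedin B, a bombesin-like peptide encoded by nmb.S, reached 10.3, 12.6 and 13.5 CPM at NF 47, against 5.65, 3.68 and 6.16 CPM at NF 45, and nmu.S, for neuromedin U, 7.11, 7.59 and 5.98 CPM against 3.11, 2.56 and 2.85 CPM. They had the steepest changes of the genes named here from this list, 1.24 ± 0.23 and 1.28 ± 0.24 on the log2 scale, and both rose. Prodynorphin (pdyn.S, 0.65 ± 0.13), cholecystokinin (cck.L, 0.79 ± 0.18), the tachykinin precursor tac1.L (0.56 ± 0.14) and vasoactive intestinal peptide (vip.L, 0.54 ± 0.13) rose as well.

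Other members of the neuropeptide list encode granule proteins, enzymes and partners of peptides. Chromogranin A, a core protein of secretory granules, had 2 copies in the list, of which chga.S measured 164, 177 and 169 CPM at NF 47 and 118, 119.8 and 110.0 CPM at NF 45. The other copy, chga.L, measured 274, 267 and 251 CPM at NF 47, against 185, 195 and 160.4 CPM at NF 45. Both rose, with stages apart and log2 fold changes of 0.55 ± 0.094 and 0.55 ± 0.11. Secretogranin II, scg2.L (0.50 ± 0.12), the precursor-cutting convertase pcsk2.L (0.52 ± 0.11), and crhbp.L (0.70 ± 0.14), whose product binds corticotropin-releasing hormone, rose also. Neurexophilin, a secreted ligand of neurexins encoded by nxph1.S, had the smallest p of the list, with 33.6, 38.5 and 38.5 CPM at NF 47 and 18.5, 25.6 and 22.0 CPM at NF 45 and a log2 fold change of 0.74 ± 0.13. The 2 members that were not higher were agrp.L, whose product raises appetite (14.0, 13.1 and 13.8 CPM at NF 47 and 26.0, 8.35 and 9.93 CPM at NF 45), and the somatostatin receptor gene sstr2.L (-0.051 ± 0.33). In agrp.L the stages overlapped, since 1 NF 45 library was the highest and the other 2 the lowest.

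**Figure D1:**
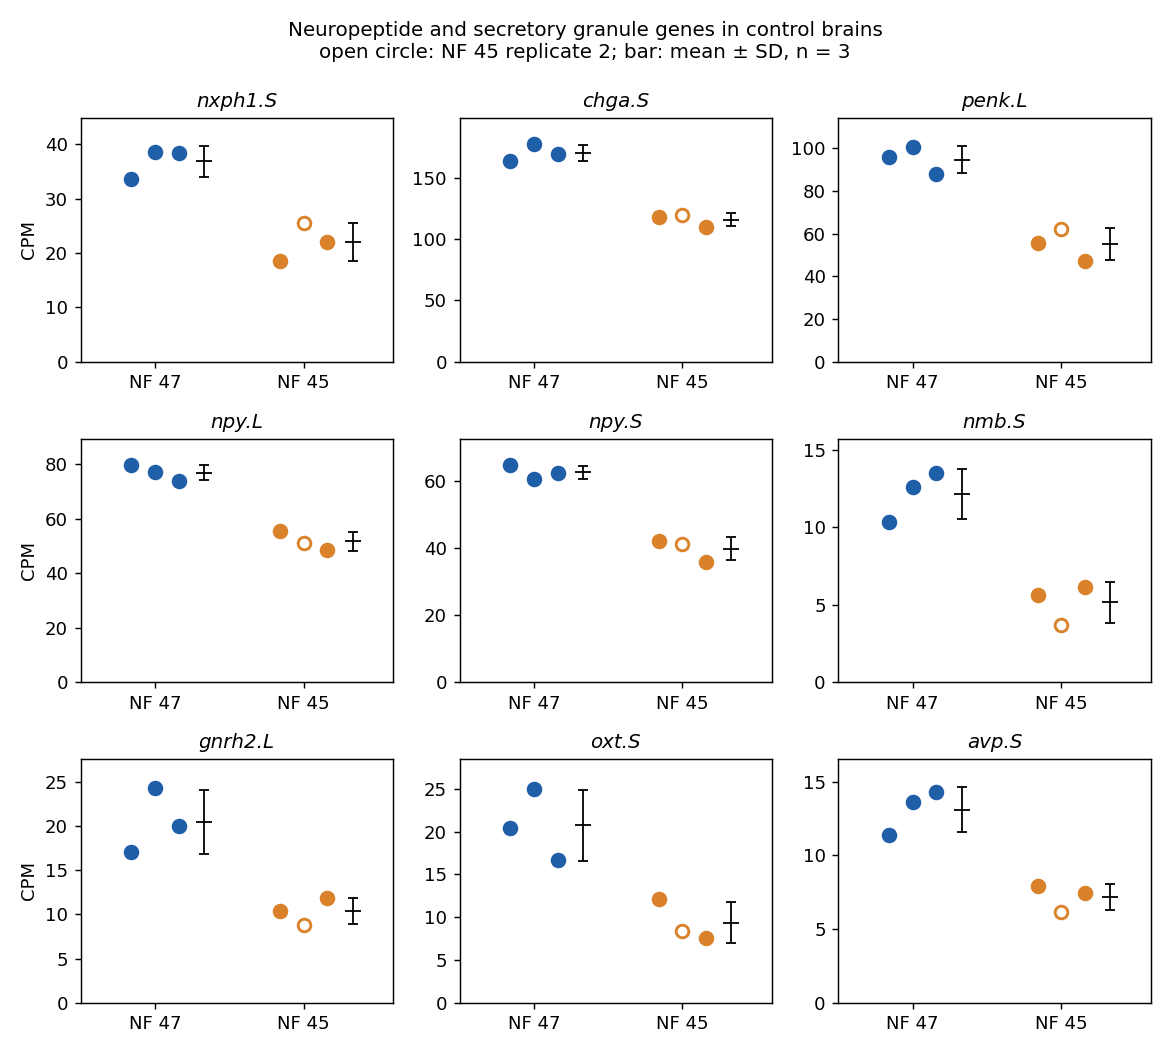
Each panel shows 1 gene in the control brains, as CPM on a linear axis from 0, with the 3 NF 47 libraries (blue) left of the 3 NF 45 libraries (orange), the open circle marking NF 45 replicate 2 and the bar the mean ± SD (n = 3). In all 9 panels each NF 47 library lies above each NF 45 library, and replicate 2 lies with the other NF 45 libraries.

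Synaptic genes were mostly higher at NF 47, by less, and here NF 45 replicate 2 lay nearer to NF 47 than the other NF 45 libraries did. Of 59 tested genes of synapses and synaptic vesicles, 46 were higher, and the median log2 fold change was 0.12 in the 12-library fit and 0.36 on the 10 libraries, beside -0.028 and 0.015 over all genes. The stages were apart upward in 17 and downward in 0 (28.8% and 0%, beside 9.83% and 8.62% of all genes), and the test on 10 libraries called 14 higher and 0 lower (23.7% and 0%, beside 1.73% and 1.32%). The list summed to 9440, 9060 and 9140 CPM at NF 47, against 6860, 8470 and 6290 CPM at NF 45, where 8470 CPM was that of replicate 2. The mean of log2 CPM over its tested genes, centred on the control libraries, weights each gene alike, and there the stages overlapped. It was 0.195, 0.085 and 0.005 at NF 47 and -0.143, 0.129 and -0.271 at NF 45. The membrane fusion protein SNAP-25 was encoded by snap25.L, at 554, 554 and 583 CPM at NF 47 and 368, 450.4 and 368 CPM at NF 45. Its stages did not overlap and it rose by 0.51 ± 0.11 on the log2 scale. The vesicle protein synaptophysin, syp.L, had 676, 662 and 680.2 CPM at NF 47 and 475, 539 and 421 CPM at NF 45 (0.49 ± 0.13). The complexin gene cplx1.S, whose product clamps and triggers vesicle fusion, had 1015, 958 and 982 CPM at NF 47 and 606, 827 and 563 CPM at NF 45 (0.57 ± 0.15). In both, the lowest NF 47 library was above the highest NF 45 library, which was replicate 2, and both rose, as did the vesicle SNARE gene vamp2.S (0.38 ± 0.11). An exception in direction was syt1.L, the calcium sensor of release, with 18.5, 29.6 and 20.04 CPM at NF 47 and 37.1, 4.42 and 104 CPM at NF 45. The NF 45 values of syt1.L spanned those of NF 47, and none of the 4 tests called it.

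Receptors, transporters and enzymes of fast transmission were described by their transmitter. Of 38 tested genes of GABA and glycine signalling, 26 were higher (median log2 fold change 0.23). On the 10 libraries 7 rose and 0 fell (18.4% and 0%, beside 1.73% and 1.32% of all genes). The beta subunit of glycine receptors, glrb.L, had 111, 116 and 112 CPM at NF 47 and 78.6, 93.5 and 74.4 CPM at NF 45, and the vesicular inhibitory transporter slc32a1.S had 323, 286 and 271 CPM at NF 47 and 215, 243 and 211 CPM at NF 45. Both were apart between the stages and rose, by 0.46 ± 0.1 and 0.39 ± 0.10 on the log2 scale. Of 51 glutamate signalling genes, 34 were higher (median 0.13), with 2 rising and 1 falling (3.92% and 1.96%, beside 1.73% and 1.32% of all genes), the 1 that fell being the glutamine synthetase gene glul.L (-0.31 ± 0.20), which glia use to recycle glutamate and in which the stages overlapped. The AMPA receptor partner cacng5.L had 40.5, 34.9 and 36.6 CPM at NF 47 and 25.5, 26.3 and 23.7 CPM at NF 45. It rose by 0.57 ± 0.12, and the kainate receptor gene grik2.S (0.42 ± 0.16) was the other that rose.

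Of 62 genes for acetylcholine and monoamine signalling, 49 were higher (median 0.28). In this list 4 rose and 0 fell (6.45% and 0%, beside 1.73% and 1.32% of all genes). Tyrosine hydroxylase, the first enzyme of dopamine synthesis, was encoded by th.L, with 10.2, 10.8 and 10.4 CPM at NF 47 and 6.81, 8.23 and 4.93 CPM at NF 45. The dopamine receptor gene drd2.L, whose product is a target of thioridazine, had 13.3, 14.0 and 12.8 CPM at NF 47 and 8.47, 12.8 and 9.16 CPM at NF 45. In th.L the stages were apart, while replicate 2 of NF 45 reached the NF 47 values in drd2.L, and both were called higher on the 10 libraries. The log2 fold change of th.L was 0.65 ± 0.20, and 0.86 ± 0.21 on the 10 libraries, and that of drd2.L was 0.39 ± 0.20, and 0.64 ± 0.15 on the 10 libraries. The serotonin receptor gene htr1a.S (0.58 ± 0.17) and the muscarinic receptor gene chrm3.L (1.1 ± 0.34) were not called by edgeR. The nicotinic receptor gene chrna7.S had 25.3, 26.7 and 28.1 CPM at NF 47 and 18.2, 23.7 and 14.6 CPM at NF 45 and rose (0.50 ± 0.16). The fourth to rise was the vesicular acetylcholine transporter gene slc18a3.L (0.28 ± 0.16, or 0.56 ± 0.12 on the 10 libraries), with overlapping stages.

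Of 84 ion channel genes, 58 were higher (median 0.17), 6 rose and 2 fell (7.14% and 2.38%, beside 1.73% and 1.32% of all genes). Those that fell were both copies of the leak channel gene kcnk1 (kcnk1.L, -0.61 ± 0.57, and kcnk1.S, -1.20 ± 0.99), whose stages overlapped. The potassium channel gene kcna6.S had 43.9, 42.2 and 43.3 CPM at NF 47 and 24.5, 37.0 and 26.6 CPM at NF 45, and rose (0.56 ± 0.14, edgeR adjusted p = 0.0166 on 10 libraries). Replicate 2 stood between the other NF 45 libraries and NF 47 in this gene. The inward rectifier gene kcnj4.L (4.60, 4.29 and 3.73 CPM at NF 47, 2.32, 2.24 and 2.00 CPM at NF 45) kept its stages apart with little spread, but missed the threshold on the 10 libraries (edgeR adjusted p = 0.0539).

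Genes of growing axons were higher as well. Of 56 tested genes of axon growth and immature neurons, 46 were higher (median 0.24). The stages were apart upward in 16 and downward in 0 (28.6% and 0%, beside 9.83% and 8.62% of all genes). In this list 6 rose and 0 fell (10.7% and 0%, beside 1.73% and 1.32%). The microtubule regulator stmn4.S had 102, 97.2 and 95.8 CPM at NF 47 and 65.4, 73.4 and 55.9 CPM at NF 45, and rose by 0.60 ± 0.14. The neurofilament gene nefl.S, for the light subunit of the axonal cytoskeleton, had 97.4, 109 and 104 CPM at NF 47 and 70.5, 93.2 and 60.4 CPM at NF 45, and rose by 0.47 ± 0.15. The RNA-binding protein gene elavl2.L (0.52 ± 0.15) rose too. By contrast dcx.L, for doublecortin of migrating neurons, had 20.6, 17.0 and 14.1 CPM at NF 47 and 16.5, 31.9 and 22.1 CPM at NF 45, overlapped between the stages and was called by none of the 4 tests, like dcx.S (-0.33 ± 0.33). Of 76 axon guidance genes, 35 were higher (median -0.027). On the 10 libraries 0 fell and 1 rose (0% and 1.32%, beside 1.32% and 1.73% of all genes). It was epha7.S, an ephrin receptor gene, with 20.2, 20.5 and 22.6 CPM at NF 47 and 15.9, 21.3 and 11.8 CPM at NF 45, and replicate 2 inside the NF 47 range.

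The medians of several of these lists moved with single NF 45 libraries. Without NF 45 replicate 3 of the controls they were 0.041 for glutamate signalling, 0.050 for ion channels, 0.14 for GABA and glycine signalling and 0.13 for axon growth. Without NF 45 replicate 2 of both treatments they were 0.27 for glutamate signalling, 0.32 for ion channels, 0.41 for GABA and glycine signalling, 0.44 for acetylcholine and monoamine signalling and 0.38 for axon growth. All of them stayed above 0 in these settings. Of the 464 genes that rose, 83 had a change on the 10 libraries over 1.5 times that of the 12-library fit, and of the 353 that fell, 140.

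**Figure D2:**
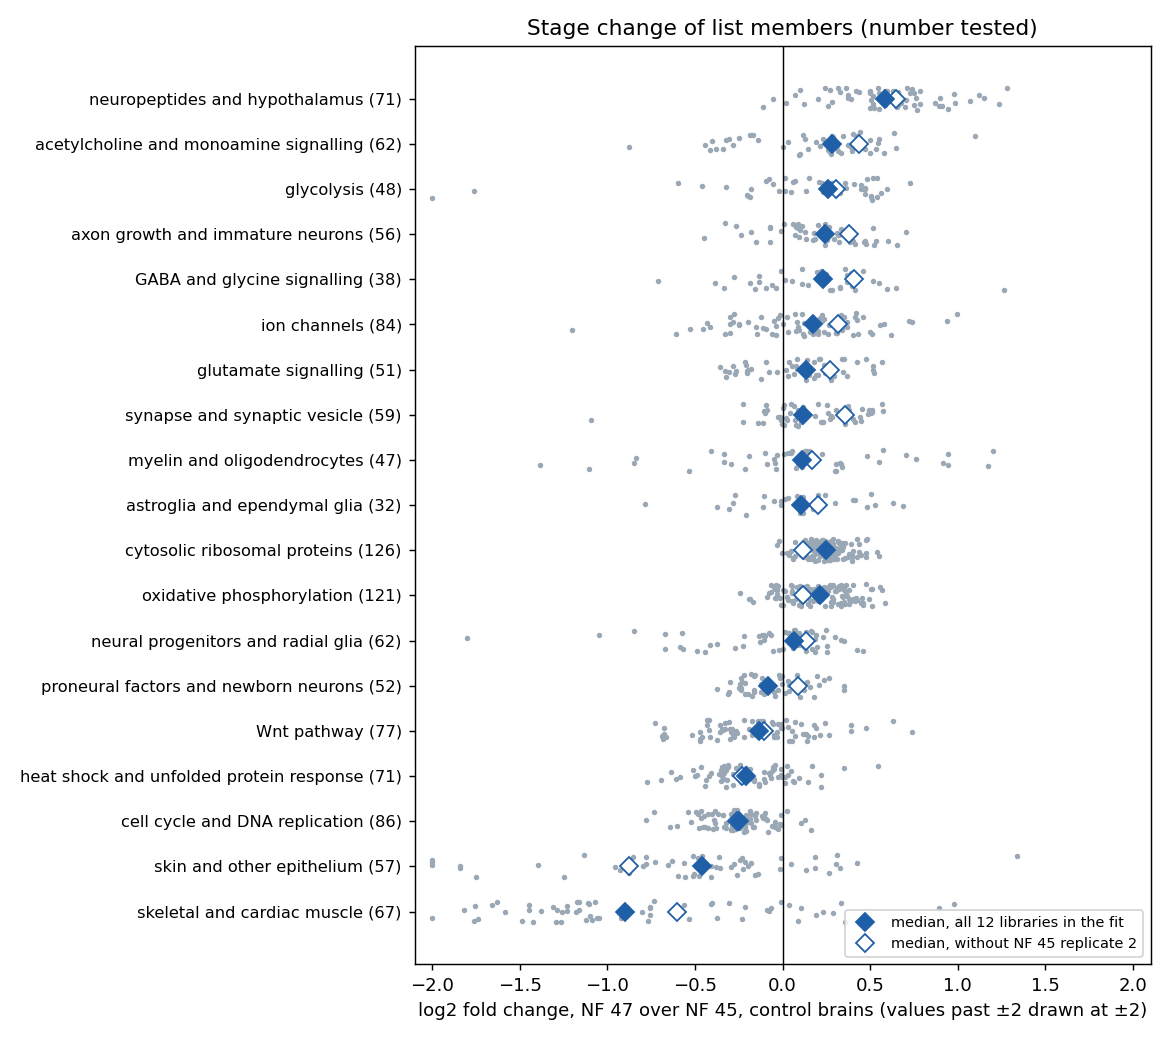
Grey points are the log2 fold changes, NF 47 over NF 45, of the tested members of 19 gene lists in control brains, with their number in brackets. Filled diamonds give the median in the fit of all 12 libraries and open diamonds that without NF 45 replicate 2 of both treatments, 0.58 and 0.65 for neuropeptides at the top and -0.90 and -0.60 for muscle at the bottom.

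Of the 47 tested genes of the myelin list, 30 were higher (median log2 fold change 0.11, and 0.021 without NF 45 replicate 1), and 2 rose and 1 fell (4.26% and 2.13%, beside 1.73% and 1.32% of all genes). Myelin basic protein, which compacts the myelin sheath, was encoded by mbp.S with 43.2, 73.7 and 59.6 CPM at NF 47 and 29.9, 31.3 and 32.2 CPM at NF 45 (0.92 ± 0.29 on the log2 scale). Its copy mbp.L had 33.5, 48.2 and 40.4 CPM at NF 47 and 23.8, 25.8 and 22.4 CPM at NF 45 (0.76 ± 0.28). Both copies had their stages apart, with NF 47 replicate 1 the lowest of its stage, and neither was called by any of the 4 tests. The transcription factor gene nkx2-2.L, used by oligodendrocyte precursors, had 47.4, 49.4 and 44.0 CPM at NF 47 and 34.3, 33.1 and 27.2 CPM at NF 45, and rose (0.57 ± 0.13). The member that fell was the gap junction gene gjb1.L (-1.38 ± 0.76), with 2.45, 4.62 and 2.60 CPM at NF 47 and 7.75, 0.997 and 16.6 CPM at NF 45.

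Of 32 astroglial and ependymal genes, 21 were higher (median 0.11). In this list 3 rose and 1 fell, again glul.L (9.38% and 3.12%, beside 1.73% and 1.32% of all genes). Among those that rose were aldoc.L, an aldolase that marks astroglia in mammals, with 910.4, 979 and 937 CPM at NF 47 and 666, 727 and 632 CPM at NF 45, and ndrg2.S, with 316, 317 and 369 CPM at NF 47 and 228, 261 and 217 CPM at NF 45. Their log2 fold changes were 0.48 ± 0.11 and 0.51 ± 0.11, with stages apart, and clusterin, a secreted chaperone encoded by clu.L, was the third (0.69 ± 0.23). Radial glia and progenitor genes did not move together. Of 62 tested, 37 were higher (median 0.063), and 0 rose and 0 fell on the 10 libraries. The stages were apart upward in 3 and downward in 8 (4.84% and 12.9%, beside 9.83% and 8.62% of all genes). The stem cell factor sox2.L had 125, 96.5 and 95.5 CPM at NF 47 and 111, 97.9 and 94.1 CPM at NF 45 (0.065 ± 0.14), with the stages overlapping. The let-7 antagonist lin28a.L, a gene of early progenitors, was near the limit of counting at 0.538, 0.66 and 0.141 CPM at NF 47 and 1.59, 1.93 and 1.23 CPM at NF 45 (-1.80 ± 0.56), and hmga2.S, a chromatin gene of early progenitors, stood at 1.49, 0.924 and 0.985 CPM at NF 47 and 2.46, 1.99 and 2.62 CPM at NF 45. Both had the stages apart, and neither was called by edgeR. Of 52 proneural genes, 18 were higher (median -0.085, and 0.088 on the 10 libraries), and 0 were called.

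Glycolysis genes were mostly higher at NF 47. Of 48 tested, 35 were higher (median log2 fold change 0.26). In 25 the stages were apart upward and in 3 downward (52.1% and 6.25%, beside 9.83% and 8.62% of all genes). On the 10 libraries 6 of the 48 rose and 1 fell, while 1.73% and 1.32% of all genes did so. The summed level was 7430, 7910 and 7810 CPM at NF 47, against 6230, 5790 and 5900 CPM at NF 45. Phosphoglycerate kinase, pgk1.L, had 173, 176 and 166 CPM at NF 47 and 114, 126 and 119 CPM at NF 45, and the mutase gene pgam1.S had 331, 391 and 319 CPM at NF 47 and 232, 251 and 223 CPM at NF 45. Both rose, by 0.52 ± 0.096 and 0.56 ± 0.11, as did enolase (eno1.S, 0.47 ± 0.11). The glucose transporter gene slc2a1.L, of the blood vessels of the brain and of other cells, rose as well, with 234, 193 and 209 CPM at NF 47 and 154, 148 and 146 CPM at NF 45 (0.51 ± 0.11).

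Genes for cytosolic ribosomal proteins and for oxidative phosphorylation leaned the same way but followed single libraries. Of 126 ribosomal protein genes, 123 were higher in the 12-library fit (median 0.25). Yet the stages were apart upward in 1 (0.794%, beside 9.83% of all genes), and 0 were called. Their sum was 70200, 93700 and 96300 CPM at NF 47, against 84500, 55100 and 84200 CPM at NF 45, so the lowest NF 47 library lay below 2 of the NF 45 libraries. Without replicate 2 of NF 45 the median was 0.12. Of 121 oxidative phosphorylation genes, 101 were higher (median 0.21, and 0.12 on the 10 libraries). The stages were apart upward in 13 (10.7%, near the 9.83% of all genes), and 0 rose.

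Genes of the cell cycle were slightly and evenly lower at NF 47. Of 86 tested, 82 were lower, beside 53.8% of all genes, and their median log2 fold change was -0.25, or -0.26 on the 10 libraries. The 3 NF 47 libraries lay below the 3 NF 45 libraries in 34 (8.62% of all genes did so) and above them in 0. Of the 86, edgeR on 10 libraries called 1 lower (1.16%, beside 1.32% of all genes), DESeq2 1 and limma-voom 10. Over all genes DESeq2 called 0.501% lower and limma-voom 1.04%. The list summed to 2700, 2700 and 3080 CPM at NF 47, against 3490, 3080 and 3280 CPM at NF 45, so the highest NF 47 library and the lowest NF 45 library met. In the mean of log2 CPM over the tested genes, centred on the control libraries, the stages were apart. It was -0.155, -0.182 and -0.043 at NF 47 and 0.181, 0.052 and 0.147 at NF 45. The replication licensing gene cdc6.L had 16.9, 19.6 and 17.9 CPM at NF 47 and 28.6, 24.6 and 22.5 CPM at NF 45 (-0.48 ± 0.11), with the stages apart, and was called lower by DESeq2 (adjusted p = 0.0168). The cytokinesis kinesin gene kif20a.L fell on the 10 libraries, with 21.7, 20.3 and 23.3 CPM at NF 47 and 33.5, 24.7 and 31.9 CPM at NF 45 (-0.47 ± 0.13). The spindle checkpoint kinase gene bub1.L (-0.39 ± 0.11), the mitotic kinase genes plk1.S (-0.44 ± 0.14) and aurka.S (-0.45 ± 0.15) were lower with the stages apart, and edgeR called none of them.

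Common proliferation markers overlapped between the stages, and pcna did not share this shift. The replication clamp gene pcna.L had 202, 239 and 243 CPM at NF 47 and 267, 193 and 229 CPM at NF 45, and its copy pcna.S had 139.8, 188 and 207 CPM at NF 47 and 209, 145 and 196 CPM at NF 45. Their stages overlapped throughout, with log2 fold changes of -0.011 ± 0.19 and -0.042 ± 0.23. For mki67.L, the gene of the Ki-67 antigen, the values were 58.4, 48.1 and 72.9 CPM at NF 47 and 66.3, 86.8 and 60.7 CPM at NF 45 (-0.25 ± 0.20), overlapping too. That change was close to the median of the cell cycle list. The copy mki67.S overlapped as well (-0.19 ± 0.18). On the 10 libraries the changes were -0.050 for mki67.L and -0.25 for mki67.S.

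**Figure D3:**
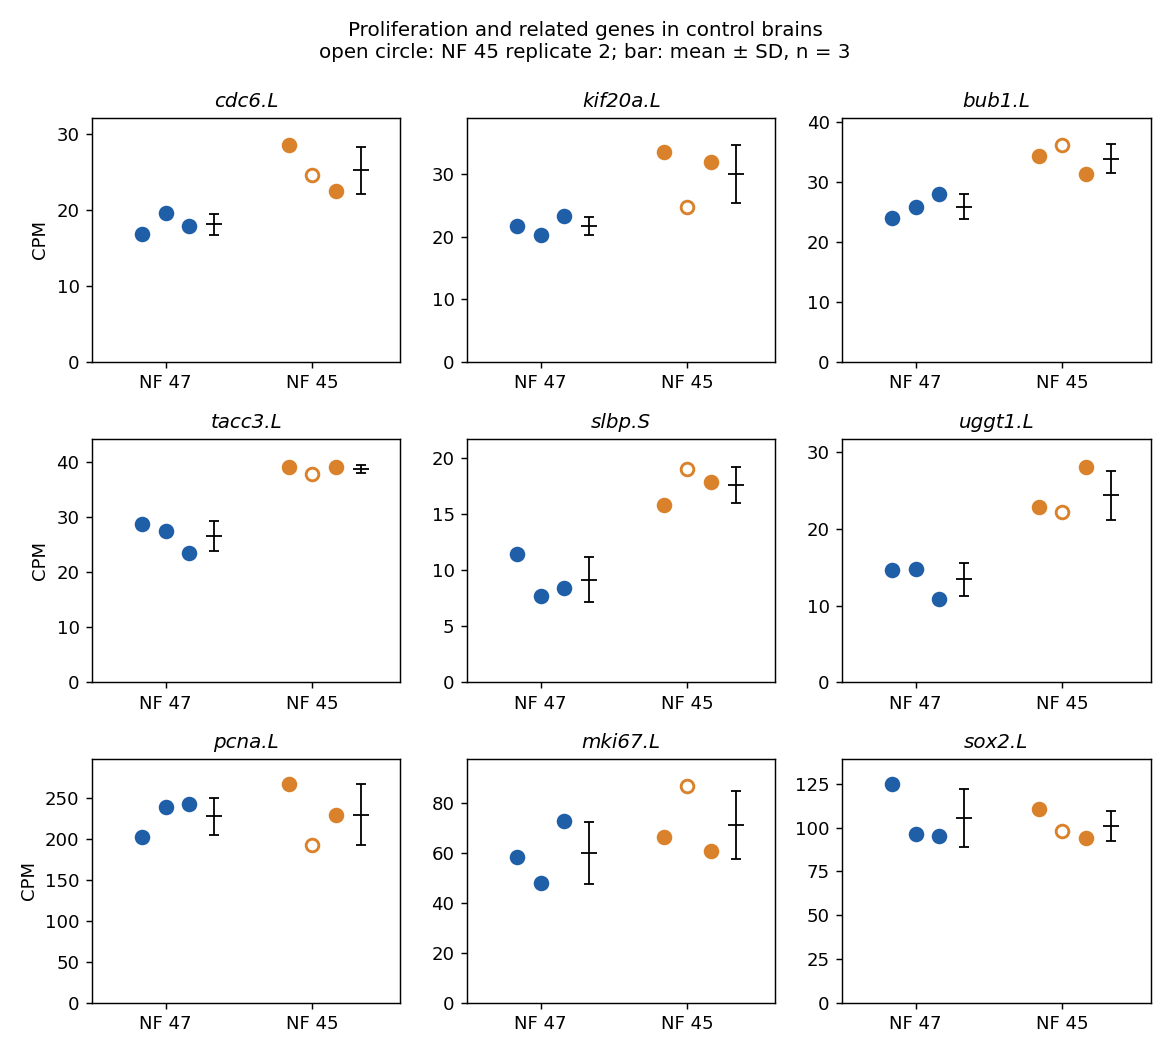
Each panel shows 1 gene in the control brains, as CPM on a linear axis from 0, with the 3 NF 47 libraries (blue) left of the 3 NF 45 libraries (orange), the open circle marking NF 45 replicate 2 and the bar the mean ± SD (n = 3). The NF 47 libraries lie below the NF 45 libraries in cdc6.L, kif20a.L, bub1.L, tacc3.L, slbp.S and uggt1.L, and the stages overlap in pcna.L, mki67.L and sox2.L.

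The lower gene with the smallest p was pprc1.L (gene number 108696159), for a coactivator of the PGC-1 family, with 20.6, 18.4 and 16.3 CPM at NF 47 and 32.9, 29.5 and 31.2 CPM at NF 45. It fell, with a log2 fold change of -0.76 ± 0.13 (edgeR adjusted p = 0.0313 on 10 libraries), with the stages well apart. The spindle protein gene tacc3.L had 28.7, 27.4 and 23.5 CPM at NF 47 and 39.1, 37.8 and 39.1 CPM at NF 45, and fell (-0.54 ± 0.11). The histone messenger binding protein gene slbp.S, at 11.4, 7.66 and 8.37 CPM at NF 47 and 15.9, 19.0 and 17.9 CPM at NF 45, was lower by a log2 fold change of -0.94 ± 0.21. It was called by DESeq2 (adjusted p = 0.00518) and not by edgeR on the 10 libraries (adjusted p = 0.0658). Of the other 7 lower genes with the smallest p, the transcription factor gene klf11.S (-0.60 ± 0.12), the folding sensor gene uggt1.L (-0.86 ± 0.19) and the tubulin gene tuba5.S (-0.51 ± 0.11) fell. The Mediator subunit gene med26.L (-0.52 ± 0.11), the polyadenylation factor gene cpsf2.S (-0.41 ± 0.091), the RNA-binding protein gene rbm14.S (-0.49 ± 0.11) and the zinc finger gene znf592.L (-0.42 ± 0.094) were called by DESeq2 and limma-voom and not by edgeR on the 10 libraries. All 10 had the stages apart in the 6 control libraries.

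Chaperones and genes of the unfolded protein response, which fold proteins in the cytosol and in the endoplasmic reticulum, were lower as a list. Of 71 tested, 14 were higher and 57 lower (median log2 fold change -0.21, and -0.11 without NF 45 replicate 3), 17 were apart downward and 1 upward (23.9% and 1.41%, beside 8.62% and 9.83% of all genes), and 0 rose and 3 fell on the 10 libraries (0% and 4.23%, beside 1.73% and 1.32%), manf.L, manf.S and edem1.L, all with overlapping stages. The endoplasmic reticulum chaperone gene hyou1.S had 32.1, 26.3 and 25.9 CPM at NF 47 and 37.5, 41.4 and 47.7 CPM at NF 45 (-0.59 ± 0.15). The stages did not overlap, and DESeq2 called it (adjusted p = 0.0204) while edgeR did not. The BiP gene hspa5.S, the main chaperone of that compartment, was at 293, 275 and 261 CPM at NF 47 and 376, 304 and 358 CPM at NF 45 (-0.32 ± 0.12), apart and called, of the 4 tests, by limma-voom only. The gene manf.L, of a secreted survival factor induced by folding stress, was at 31.0, 36.0 and 31.4 CPM at NF 47 and 46.9, 34.5 and 56.6 CPM at NF 45, where replicate 2 lay inside the NF 47 range.

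Pituitary hormone genes were higher on average but varied between the NF 47 libraries. Of 26 tested, 22 were higher (median 0.41). The stages were apart upward in 4 (15.4%, beside 9.83% of all genes), and 0 were called by any of the 4 tests. Proopiomelanocortin, the precursor of corticotropin and melanocyte-stimulating hormone, was encoded by pomc.S with 121, 268 and 186 CPM at NF 47 and 120.0, 85.8 and 100.0 CPM at NF 45 (0.91 ± 0.35). Growth hormone, gh1.L, had 27.1, 44.0 and 24.4 CPM at NF 47 and 27.0, 20.7 and 15.9 CPM at NF 45 (0.58 ± 0.35). NF 47 replicate 2 was the highest library of both genes, and gh1.L overlapped between the stages. The thyrotropin subunit gene tshb.L was detected near 1 CPM, at 1.25, 1.19 and 1.34 CPM at NF 47 and 0.507, 0.748 and 0.616 CPM at NF 45 (1.00 ± 0.38), with the stages apart and no call.

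Upstream in the thyroid axis, trh.L, the precursor of thyrotropin-releasing hormone, rose by 0.68 ± 0.14, with 53.8, 49.2 and 44.0 CPM at NF 47 and 30.8, 35.4 and 25.7 CPM at NF 45. The amino acid and thyroid hormone transporter gene slc7a8.L rose too (0.53 ± 0.15). The receptor genes thra.L (-0.38 ± 0.48) and thrb.S (-0.40 ± 0.65) and the response gene klf9.L (-0.81 ± 0.48) lay between 0.141 and 3.08 CPM in the control libraries and were called by none of the 4 tests. At such low levels this does not show that they were unchanged. The deiodinase gene dio2.L, which activates thyroid hormone, was well expressed at 91.4, 106 and 107 CPM at NF 47 and 92.0, 107 and 73.4 CPM at NF 45 (0.16 ± 0.17), and its stages overlapped. Its copy dio2.S (-0.66 ± 0.48) and the inactivating deiodinase gene dio3.L (0.30 ± 0.40) overlapped as well. Over the 45 tested genes of the axis, 20 were higher (median -0.082). Of them 3 rose and 0 fell (6.67% and 0%, beside 1.73% and 1.32% of all genes). The protease inhibitor gene timp2.S (0.33 ± 0.11) was the third.

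Immediate early genes, which neurons switch on within minutes of activity or handling, were higher in part. Of 51 tested, 35 were higher (median 0.15). The stages were apart upward in 8 and downward in 2 (15.7% and 3.92%, beside 9.83% and 8.62% of all genes). In this list 5 rose and 0 fell (9.8% and 0%, beside 1.73% and 1.32%). The AP-1 gene jun.S had 39.9, 27.1 and 37.5 CPM at NF 47 and 21.9, 23.2 and 20.1 CPM at NF 45 (0.68 ± 0.15), with the stages apart. Its partner fos.S had 16.9, 22.6 and 29.1 CPM at NF 47 and 10.3, 17.9 and 9.86 CPM at NF 45 (0.84 ± 0.26), where replicate 2 reached into the NF 47 range. Both rose, and so did fos.L (0.84 ± 0.27) and egr4.S (0.60 ± 0.46, or 1.53 ± 0.35 on the 10 libraries). The synaptic gene arc.L, with 15.5, 21.1 and 24.97 CPM at NF 47 and 10.7, 27.0 and 10.9 CPM at NF 45, was the fifth, although replicate 2 of NF 45 was its highest library.

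Genes that set regional identity did not move together. Of 98 tested forebrain and midbrain patterning genes, 66 were higher (median 0.079), and 2 rose and 0 fell (2.04% and 0%, near the 1.73% and 1.32% of all genes), namely the homeobox genes arx.L (0.39 ± 0.12) and dlx2.S (0.42 ± 0.13). The interneuron gene dlx5.L had 49.9, 44.5 and 42.1 CPM at NF 47 and 37.0, 27.6 and 27.9 CPM at NF 45 (0.56 ± 0.16), with the stages apart, and was called, of the 4 tests, by DESeq2 only (adjusted p = 0.0423). Of 40 hox and hindbrain genes, 12 were higher (median -0.18). The stages were apart upward in 0 and downward in 6 (0% and 15%, beside 9.83% and 8.62% of all genes). Of the 38 tested on the 10 libraries, 0 fell and 1 rose (0% and 2.63%, near the 1.32% and 1.73% of all genes). The gene that rose was hoxd3.S (0.30 ± 0.20, or 0.65 ± 0.14 on the 10 libraries), with overlapping stages. The posterior gene hoxc6.S was at 0.239, 0.066 and 0.281 CPM at NF 47 and 0.579, 2.43 and 0.847 CPM at NF 45, so low that the stages differ by few reads, and NF 45 replicate 2 was its highest library. Of 77 Wnt pathway genes, 23 were higher and 54 lower (median -0.13). The stages were apart upward in 4 and downward in 15 (5.19% and 19.5%, beside 9.83% and 8.62% of all genes). On the 10 libraries 0 were called. The Wnt repressor gene tcf7l1.L had 15.7, 12.7 and 13.2 CPM at NF 47 and 21.8, 16.5 and 19.4 CPM at NF 45 (-0.47 ± 0.14), and of the 4 tests limma-voom alone called it.

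Markers of tissues that can stay attached to a dissected brain differed between the NF 45 libraries by far more than between the stages. Skin and epithelial genes summed to 2190, 3270 and 2840 CPM at NF 47, against 4200, 896 and 5140 CPM at NF 45, the 896 CPM being replicate 2. Muscle genes summed to 1640, 1200 and 2130 CPM at NF 47, against 1620, 4700 and 2810 CPM at NF 45. Genes of liver, pancreas and gut summed to 881, 1140 and 1100 CPM at NF 47 and to 819, 760 and 2800 CPM at NF 45. Among their defining genes, rbp4.S alone had 609, 795 and 777 CPM at NF 47 and 576, 578 and 631 CPM at NF 45. The pancreas gene cpa1.L had 0, 0.066 and 0.141 CPM at NF 47 and 0.0724, 0.0623 and 28.8 CPM at NF 45. These sums are therefore no measure of liver or gut in each library. Lens genes summed to 9.2 to 10.9 CPM at NF 47 and 8.04, 8.35 and 85.2 CPM at NF 45. Replicate 2 thus carried the least skin and the most muscle, and replicate 3 the most liver, retina and lens. The defining markers of skin, muscle, retina and cartilage had reads in all 6 libraries. Of the 12 defining genes of liver, pancreas and gut, 6 had reads in each library and 2 were at 0 in all 6.

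The lower calls on 10 libraries held 12 of 57 tested skin genes (21.1%, beside 1.32% of all genes), and 1 skin gene was called higher. They also held 7 of 77 genes of cartilage, bone and connective tissue (9.09%), where 0 were called higher. All 7 were collagen or twist1 genes with overlapping stages. The keratin gene krt12.4.S, for example, had 0.777, 2.18 and 1.62 CPM at NF 47 and 25.1, 0.499 and 25.4 CPM at NF 45. It was called lower on the 10 libraries, yet replicate 2 of NF 45 lay below each NF 47 library. In the liver gene fgb.L, for fibrinogen, 1 library carried the difference, with 0.478, 0.528 and 0.352 CPM at NF 47 and 0.579, 0.748 and 42.0 CPM at NF 45. Over the 57 tested skin genes the median log2 fold change was -0.46 in the 12-library fit and -0.88 on the 10 libraries, and over 38 motile cilia genes, 36 of them lower, it was -0.36 and -0.57. Leaving out NF 45 replicate 3 alone turned these medians to 0.14 for skin and 0.017 for motile cilia. The part that these tissues have in the lower and higher calls was not tested.

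**Figure D4:**
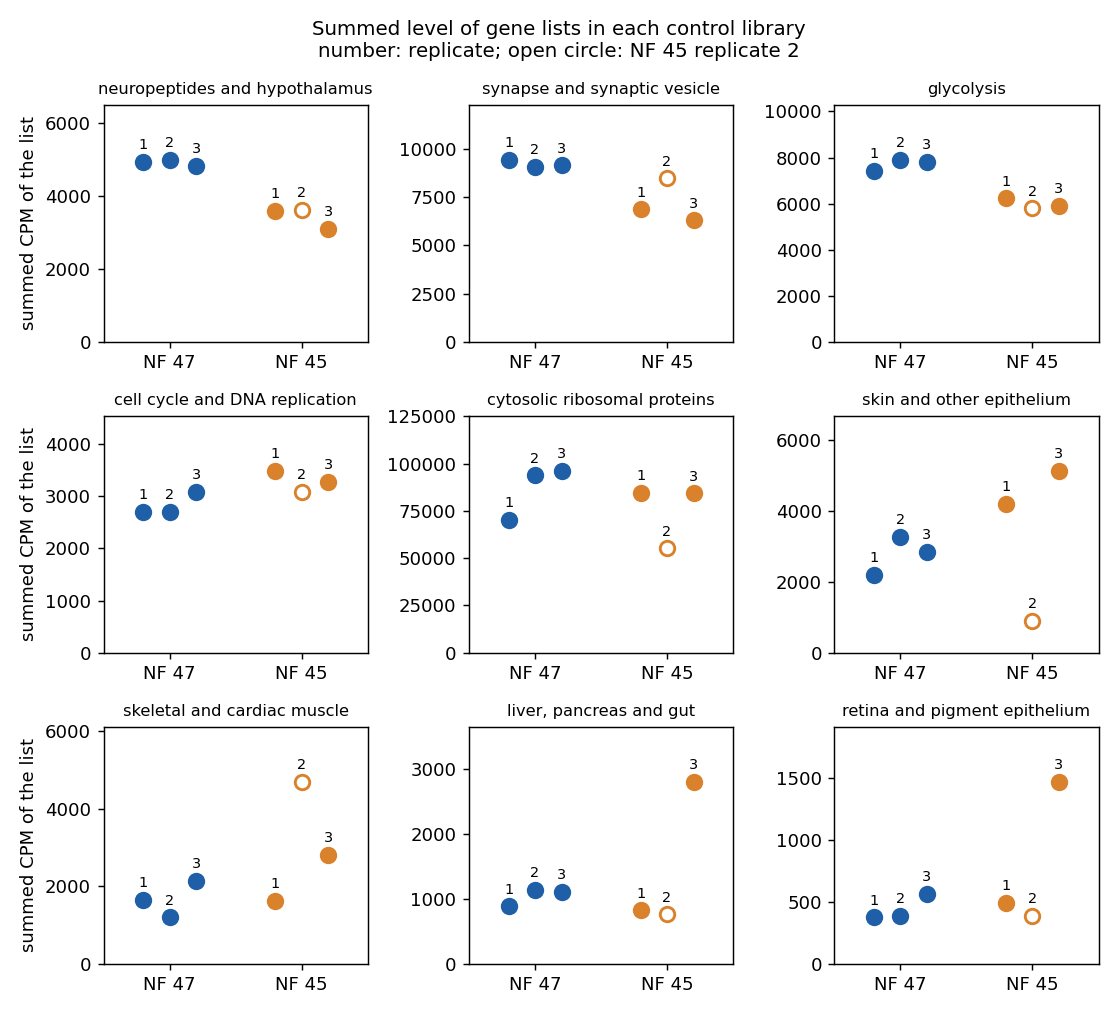
Each panel gives the summed CPM of 1 gene list in the 3 NF 47 libraries (blue) and the 3 NF 45 libraries (orange) of control brains, on a linear axis from 0, with the replicate number at each point and an open circle for NF 45 replicate 2. The sums of the stages are apart in the neuropeptide, synapse and glycolysis panels, whereas single NF 45 libraries stand out in the skin, muscle, liver and retina panels. In the mean of log2 CPM, which weights each gene alike, the stages overlap for synapse genes and are apart for cell cycle genes.

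The same stage contrast was available in the brains that had been exposed to thioridazine as embryos. These libraries are separate from the controls, but libraries with the same number deviated together within a stage (correlations of 0.575, 0.845 and 0.449 at NF 45), so they are not independent of them. Among the 464 genes that rose in controls, 463 were higher at NF 47 also after thioridazine (77.8% of all genes had the same direction in both), where their median change was 0.37 on the log2 scale and that of controls 0.51, and in 329 the stages were apart after thioridazine (7.35% of all genes were apart upward there and 5.98% downward). Among the 353 that fell, 331 were lower after thioridazine (median -0.49, against -0.85 in controls), and 44 were apart. Both sets were picked by their change in controls, which enlarges the control medians. These medians therefore cannot tell whether the stage change was smaller after thioridazine. Across all 26570 genes the stage changes of the treatments had a Pearson correlation of 0.659, given as a description. Within thioridazine brains edgeR called 0 genes in the 12-library fit (0%, with 1346 genes higher, 5.07%, and 1214 lower, 4.57%, at an unadjusted p under 0.05). On the 10 libraries it called 1 higher (0.00373%) and 2 lower (0.00746%), limma-voom called 1 higher (0.00376%) and 0 lower, and DESeq2 called 161 higher (1.06%) and 120 lower (0.788%).

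The difference between the stage contrasts of the treatments was called for 0 genes by edgeR, DESeq2 and limma-voom in fits that do not pair the libraries. Control and thioridazine libraries of one number deviated together within a stage (correlations of 0.291, 0.318 and 0.54 at NF 47), and with stage and number as a block edgeR called 0 genes as well, with 402 at an unadjusted p under 0.05. Without the block 91 genes had an unadjusted p under 0.05 in edgeR's 12-library fit. In 33 of them (0.124% of all genes) the change, NF 47 over NF 45, was higher after thioridazine than in controls, and in 58 (0.218%) it was lower. Of the 91, 5 were in the neuropeptide list: avp.S, gnrh2.L, nmu.S, oxt.S and pdyn.S. Their log2 fold changes between the stages after thioridazine were 0.015, 0.38, 0.42, 0.23 and 0.076 in that order, smaller than the control values given above. As the 5 genes were picked by the p of this difference, its size in them is no separate result. Over the whole list the median was 0.37 after thioridazine and 0.58 in controls. A difference between the treatments in these genes was not called after adjustment (edgeR adjusted p = 1.00 for each). The snca.L gene had a log2 change of 0.59 after thioridazine and faim2.L one of 0.79.

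**Figure D5:**
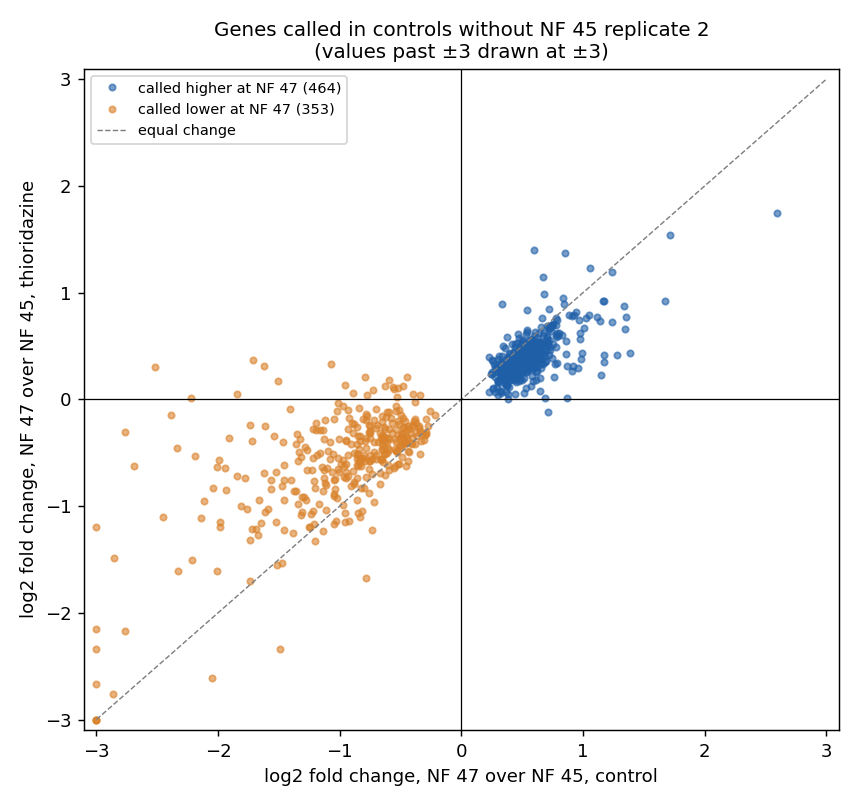
Each point is a gene called between the stages in controls by edgeR on the 10 libraries without NF 45 replicate 2 (464 higher in blue, 353 lower in orange), at its log2 fold change, NF 47 over NF 45, after thioridazine (vertical axis) and in controls (horizontal axis), both from the 12-library fit. Of the higher genes, 463 lie above 0 on the vertical axis, and of the lower genes 331 lie below it.

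Xenopus laevis has 2 copies of many genes, named L and S, from an ancestral genome duplication, and these can be set side by side within the same libraries. In 6835 pairs both copies were tested, and in 5027 (73.5%) they changed in the same direction. Of 758 L copies with the NF 47 libraries above the NF 45 libraries, the S copy was also apart upward in 295, apart downward in 13 and overlapping in 450. Of 694 L copies apart downward, the S copy was apart downward in 226, upward in 6 and overlapping in 462. Over all genes 9.83% were apart upward and 8.62% downward. On the 10 libraries at least 1 copy was called in 390 pairs, both copies in the same direction in 82, and in opposite directions in 0. Over all genes 1.73% were called higher and 1.32% lower. Both copies were read in the same libraries, so their agreement is no separate evidence of a stage change. Among the pairs with both copies called higher were npy.L with npy.S, chga.L with chga.S, penk.L with penk.S, snap25.L with snap25.S and the translation factor genes eef1a2.L with eef1a2.S. The muscle and neuron form of elongation factor 1A, eef1a2.S, had 173, 181 and 159 CPM at NF 47 and 118, 114 and 83.1 CPM at NF 45. Its partner eef1a2.L had 58.9, 71.6 and 59.1 CPM at NF 47 and 37.1, 48.8 and 32.3 CPM at NF 45. Both kept the stages apart, with log2 fold changes of 0.70 ± 0.14 and 0.68 ± 0.15.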

How the data were processed

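Whole-brain RNA of Xenopus laevis was sequenced as single-end 100 bp reads from TruSeq libraries, per the labels' protocols. The authors deposited raw counts per NCBI Gene number, 37018 in each library, with no normalization. Trimmomatic, HISAT2, HTSeq and DESeq2 appear, without versions, in the submitters' processing notes. Genome build, strand setting and the treatment of multiply matching reads are not given in the sources used here, so values of single L or S copies, gene families and overlapping or antisense genes are uncertain. Symbols came from an NCBI RefSeq gene table of assembly Xenopus_laevis_v10.1, used for names only, which named 33597 numbers holding 99.33% of reads.

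Counts were fitted in R 4.3.3 with edgeR 4.0.16 (filterByExpr on the 4 groups, TMM, robust quasi-likelihood F test) on all 12 libraries, which share 1 estimate of the spread, and again without NF 45 replicate 2 of both treatments. Adjustment followed Benjamini and Hochberg, across every tested gene. Listed values are TMM-scaled CPM. DESeq2 1.42.0 and limma 3.58.1 (voom with quality weights) were alternatives. The scripts were tested on simulated data. At these depths a typical gene varied between replicates with a biological coefficient of variation of 20.8% (median), and the precision of a value in a group is that of 3 libraries. For the NF 45 groups of the fit without replicate 2 it is that of 2 libraries.

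The libraries, the 45 gene lists and the tests were chosen with earlier results of these data known. As no gene was called in the 12-library fit, the genes to name were taken by their p in that fit. In each direction they were the 10 genes with a descriptive symbol and the smallest p. The 3 members of each list with the smallest p were added, and 11 followed symbols, of which those in the lists described are given. Some genes that this rule or the calls point to are not reported here. Further members were named for their roles or because they were called, after their values were seen. Replicate numbers did not pair the stages (correlations of deviations -0.056, -0.128 and 0.226). Genome positions were not used here.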

Additional observations from a re-analysis of the deposited data

How the results depend on the processing

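The number of genes called between the stages in controls depended on the libraries and the tool. Against 0 in the 12-library edgeR fit, DESeq2 called 431, limma-voom 911, edgeR without NF 45 replicate 2 of both treatments 817, edgeR on the control libraries alone without NF 45 replicate 2 559, and DESeq2 without NF 45 replicate 2 of both treatments 1753. The last 2 settings, and the block of control and thioridazine libraries within a stage, were added after seeing the data. Leaving out any single library gave 0 calls in controls and 0 to 1 in thioridazine brains. In thioridazine brains DESeq2 called 281, limma-voom 1, edgeR without NF 45 replicate 2 of both treatments 3, and DESeq2 without them 844. With the replicate number as a block on 12 libraries edgeR called 2 genes in controls and 1 in thioridazine brains, and on the 6 control libraries 0, and the numbers did not pair the stages. The cause of these differences was not tested.

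The medians of the neuropeptide list (0.50 to 0.68 over 25 settings), the glycolysis list (0.20 to 0.33) and the cell cycle list (-0.31 to -0.18) kept their sign in all settings run. Those of liver (0.28), retina (0.077), skin (0.14), interferon response (0.12) and motile cilia (0.017) turned positive without NF 45 replicate 3. Some named genes turned sign, none of them called in the setting concerned. The log2 fold change of pcna.L was 0.012 with all genes kept, 0.0094 with a filter of 1 CPM, 0.0085 on control libraries alone and 0.017 there with the replicate block. That of sstr2.L was 0.083 with limma-voom, 0.0035 and 0.016 with the replicate block on 12 and 6 libraries, 0.088 with copies summed, and 0.29, 0.27 and 0.27 in the fits without NF 45 replicate 2. With limma-voom sox2.L was -0.057 and thra.L 0.048, with copies summed dio2.S was 0.14, and with the block on 6 libraries agrp.L was 0.092. With single libraries left out the ranges were -0.39 to 0.58 for agrp.L, -1.02 to 0.013 for kcnk1.L, -1.73 to 0.14 for kcnk1.S, -0.11 to 0.11 for pcna.L, -0.17 to 0.11 for pcna.S, -0.072 to 0.15 for sox2.L, -0.26 to 0.26 for sstr2.L, -1.62 to 0.13 for syt1.L and -0.87 to 0.013 for thrb.S. Depth limits genes near 1 CPM, such as the thyroid hormone receptors and lin28a.L, where few reads separate the stages.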

Other observations

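Other gene groups are given by their medians and by single genes. The lysosomal protease gene ctsl.L had 24.7, 20.1 and 16.2 CPM at NF 47 and 11.9, 10.8 and 8.16 CPM at NF 45, and rose on the 10 libraries (0.98 ± 0.21), while over the 64 tested lysosome genes 35 were higher (median 0.022). In the endothelium list, where 16 of 40 genes were higher (median -0.046), the tight junction gene cldn5.L rose, with 38.6, 45.3 and 42.3 CPM at NF 47 and 29.5, 38.1 and 21.1 CPM at NF 45. The GABA transporter gene slc6a13.L, which meninges express in mammals, rose as well (0.65 ± 0.26), and over the 30 choroid plexus and meninges genes 10 were higher (median -0.070). Among lysosome genes the stages were apart upward in 10 and downward in 3 (15.6% and 4.69%, beside 9.83% and 8.62% of all genes). Cholesterol synthesis genes were higher in 30 of 41 (median 0.18), and the sterol reductase gene tm7sf2.L rose (0.45 ± 0.14). Here the stages were apart upward in 10 and downward in 1 (24.4% and 2.44%). Hypoxia, p53 and apoptosis genes were higher in 24 of 45 (median 0.013), and both copies of the mitophagy gene bnip3 rose (bnip3.L, 0.35 ± 0.14, and bnip3.S, 0.31 ± 0.13), with overlapping stages.

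Genes of blood and immune cells varied between the NF 47 libraries. Leukocyte and microglia genes were higher in 26 of 40 (median 0.16, and -0.19 after thioridazine). The stages were apart upward in 7 and downward in 0 (17.5% and 0%, beside 9.83% and 8.62% of all genes). On the 10 libraries 0 were called. The antigen presentation gene cd74.L had 1.01, 1.91 and 1.48 CPM at NF 47 and 0.652, 0.686 and 0.154 CPM at NF 45. The red cell list was higher in 23 of 31 genes (median 0.089) and 0 were called; its larval globin gene hba3.L had 1068, 2180.0 and 2087 CPM at NF 47 and 1328, 522 and 882 CPM at NF 45, so that the stages overlapped. Interferon response genes were higher in 10 of 31 (median -0.17, and 0.12 without NF 45 replicate 3 of the controls). In that list irf1.L fell (-0.48 ± 0.52, or -0.88 ± 0.16 on the 10 libraries) with overlapping stages.

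Lists for gene regulation and signalling had medians close to that of all genes. They were 0.030 for 29 circadian clock genes, -0.016 for 84 splicing and messenger processing genes, -0.038 for 65 chromatin genes, 0.013 for 64 translation genes, -0.012 for 49 Notch pathway genes and 0.024 for 84 Hedgehog, BMP and FGF pathway genes, beside -0.028 over all genes. Among chromatin genes the stages were apart upward in 7 and downward in 13 (10.8% and 20%, beside 9.83% and 8.62% of all genes). Among Notch pathway genes they were apart upward in 4 and downward in 7 (8.16% and 14.3%). On the 10 libraries 0 genes of either list were called. The clock gene per2.L was lower at 11.7, 12.01 and 10.3 CPM at NF 47 and 15.9, 19.6 and 19.8 CPM at NF 45, with the stages apart and no call, and the time of day at which brains were taken is not given in the labels. The neural splicing regulator celf2.S rose (0.41 ± 0.14). Pigment and neural crest genes were lower in 30 of 37 (median -0.24, and -0.24 after thioridazine), and the pigment cell gene gpnmb.L had 5.26, 8.31 and 11.2 CPM at NF 47 and 13.0, 16.1 and 15.6 CPM at NF 45.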
